A study of Mus musculus with 15 samples.

Results

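Whole-brain RNA-seq was used to follow the genes by which astrocytes keep the brain's extracellular space in order. The description covers 10 such genes of the 43629 genes listed for each mouse. They were named for their known roles, by a rule that uses no measured value, though with earlier results of these data known. They were the glutamate transporters Slc1a2 and Slc1a3, glutamine synthetase (Glul), the water channel Aqp4, the connexins Gja1 and Gjb6, the metabolic enzymes Aldh1l1 and Aldoc, the calcium-binding protein S100b and the transcription factor Sox9. The 15 mice were wild-type C57BL/6J males in 4 groups. Of the young mice 4 were AL and 3 EOD, and of the old mice 4 were AL and 4 EOD. AL mice were fed ad libitum. EOD mice were fed every other day, with food for 24 h alternating with 24 h without, from 2 months of age. The labels give 3 months for the young and 24 months for the old mice, and the methods of the study give a lower age at which its examination of old mice began. Young EOD mice had therefore been on the diet only briefly, and old EOD mice for most of their lives. Each library came from the whole brain of 1 mouse, so that all cell types of all brain regions were mixed. Fewer astrocytes and less RNA per astrocyte cannot be told apart in such samples.

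Astrocytes are the main glial cells of the brain. They take up glutamate released at synapses, turn it into glutamine and hand it back to neurons, a loop known as the glutamate-glutamine cycle. Their endfeet on blood vessels hold water and potassium channels, and gap junctions join neighbouring astrocytes into a network through which ions and metabolites spread. When the tissue is injured or inflamed, astrocytes raise another set of genes, led by the filament protein Gfap, which is called reactive.

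The depth ranged from 5198748 to 13610729 counts per mouse, with a median of 9886766. Each of the 10 genes was counted in every mouse, from 80 to 254 times for Sox9 and from 15367 to 42665 times for Slc1a2, and all 10 passed the filter on low counts. The third young AL mouse stood apart from the other 14. It had counts on 17280 genes against 19054 to 20880 in the others, and its median correlation with the other mice was 0.957 against 0.980 to 0.987. Values are therefore given for 15 mice and, for a part of the results, also for the 14 mice without it. Values given only for 15 mice can differ without it. The fourth old AL mouse held pituitary transcripts, with a summed level of 1032 CPM (counts scaled to library size) for the pituitary markers against 18.2 or less in the others. Libraries were run on 3 sequencing lanes, and the third lane held no young EOD mouse. CPM values were scaled by the TMM method, and genes were called at a false discovery rate (FDR) under 0.1 in edgeR's quasi-likelihood test.

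The files place the genes on the GRCm38 build, all of them protein-coding. Slc1a2 lies at chr2:102658659-102790784 (plus strand), Slc1a3 at chr15:8634124-8710764 (minus strand) and Glul at chr1:153899944-153909723 (plus strand). Gja1 lies at chr10:56377300-56390419 (plus strand), Gjb6 at chr14:57123303-57133611 (minus strand) and Aldh1l1 at chr6:90486427-90600203 (plus strand). Aldoc and Sox9 lie on the plus strand at chr11:78322968-78327781 and chr11:112782224-112787760. Exons of Glul share bases on the same strand with the microRNA gene Mir8114, and the counting command in the file headers sets no option to count reads that overlap more than 1 gene.

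Per length of the gene's exons, the 10 genes spanned from 500.4 ± 30.6 CPM per kilobase for Glul to 4.28 ± 0.861 for Sox9 (mean ± SD, n = 15 mice). Aldoc followed Glul at 258 ± 19.4 CPM per kilobase, and Slc1a2 came next at 231 ± 15.5. S100b stood at 116 ± 15.04, Gja1 at 91.3 ± 8.35 and Slc1a3 at 84.4 ± 3.88 CPM per kilobase. The levels of Aqp4 (48.0 ± 6.14), Gjb6 (33.3 ± 5.81) and Aldh1l1 (13.7 ± 1.25) were lower on the same scale. The ranges over mice overlapped for 4 neighbouring pairs in this order. Aldoc was above Slc1a2, S100b above Gja1 and Gja1 above Slc1a3 in 12 of 15 mice each, and Aqp4 was above Gjb6 in 15 of 15. Exon length was taken as the union of all annotated exons of a gene, 13133 bases for Slc1a2 and 1484 for S100b, so that a gene with long and rarely used exons is placed lower. The coefficient of variation over all mice was smallest for Slc1a3 (4.59%) and largest for Sox9 (20.1%, or 14.4% over 14 mice).

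**Figure D1:**
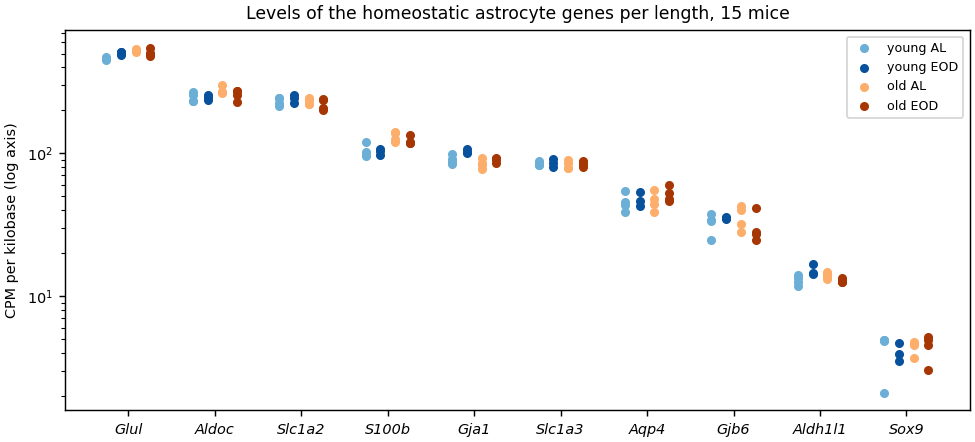
Level of each of the 10 homeostatic astrocyte genes in CPM per kilobase of exon (vertical log axis), with 1 point per mouse and colours for the 4 groups. Glul had the highest and Sox9 the lowest level in every mouse, and the low point of Sox9, at 2.10 CPM per kilobase, is the third young AL mouse.

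S100b, a calcium-binding protein made by astrocytes and by part of the oligodendrocyte lineage, was the only one of the 10 genes whose level was called different between any groups. Its gene lies on chr10:76253853-76261159 (GRCm38, plus strand). S100b was at 144.4, 152.3, 177.4 and 142.7 CPM in the 4 young AL mice and at 206.3, 187.5, 210.3 and 178.2 CPM in the 4 old AL mice. Each old AL mouse lay above each young AL mouse, but the highest young value, 177.4 CPM in the third mouse, nearly reached the lowest old one. In EOD mice S100b was at 145.6, 158.2 and 154.2 CPM in the young and at 175.5, 176.4, 178.5 and 199.1 CPM in the old. These groups did not overlap either. The group means rose from 154 ± 16.01 to 196 ± 15.3 CPM in AL mice (SD, n = 4 and 4).

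With age in AL mice S100b rose by a log2 fold change of 0.34 ± 0.078 (SE), a factor of 1.27 (edgeR, FDR = 0.0389 over 15864 genes). Without the third young AL mouse the log2 fold change was 0.42 (edgeR, FDR = 0.00515). In EOD mice the log2 fold change with age was 0.26 ± 0.085 and was not called (edgeR, FDR = 0.584), and over 14 mice it was 0.26 (edgeR, FDR = 0.225). The difference between both age effects was -0.08 on the log2 scale, with a 95% interval from -0.32 to 0.16 (edgeR, FDR = 0.9998), so an age effect that differed with diet was not shown. Averaged over both diets S100b rose with age by 0.30 ± 0.058, a factor of 1.23 with a 95% interval from 1.13 to 1.34 (edgeR, FDR = 0.00728, and 0.000651 over 14 mice). Within the lanes the age difference of S100b in AL mice was 0.48, 0.16 and 0.32 on the log2 scale. In EOD mice it was 0.27 and 0.18 in the 2 lanes that held both ages. Each of these lane values rests on only 1 or 2 mice per group. In the second lane the third young AL mouse was the only young AL mouse. Calls for the age difference in AL mice depended on single mice. The FDR of S100b was 0.102 without the first, 0.101 without the second young AL mouse, 0.135 without the first and 0.188 without the third old AL mouse, and 0.181 when only the 8 AL mice were fitted.

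Diet left no called difference in S100b. The log2 fold change of EOD against AL was -0.02 in young mice and -0.10 in old mice, and averaged over ages it was -0.06 with a 95% interval from -0.18 to 0.06 (edgeR, FDR = 0.983).

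S100b is also expressed by oligodendrocytes, so the markers of that cell type were read beside it. The summed level of 8 oligodendrocyte markers ranged from 5932 to 7042 CPM in young AL, from 6601 to 7146 in young EOD, from 6963 to 7756 in old AL and from 6569 to 7235 CPM in old EOD mice. Of the 8 markers, 1 was called for age averaged over diets, where 2.3% of all genes were called, and none was called lower. The called one was Mbp, the main myelin basic protein, at a log2 fold change of 0.29 ± 0.068 (edgeR, FDR = 0.0346). Mog and Opalin, which encode other myelin-related proteins of oligodendrocytes, were at -0.19 ± 0.057 and -0.38 ± 0.13 (edgeR, FDR = 0.140 and 0.21), and passed no threshold. Over 14 mice Mog was at -0.15 and Opalin at -0.32 (edgeR, FDR = 0.229 and 0.318). Mobp, a further myelin gene, was at 0.19 under AL and at -0.22 under EOD (edgeR, FDR = 0.458 and 0.761). In AL mice alone Mbp was called at 0.39 ± 0.092 (edgeR, FDR = 0.0515), but not without the third young AL mouse (0.32, edgeR FDR = 0.156). The median log2 fold change of the 8 markers was 0.15 under AL, -0.13 under EOD and 0.01 averaged, and no marker was at 0 in any mouse. What part oligodendrocyte RNA had in the S100b difference was not tested.

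**Figure D2:**
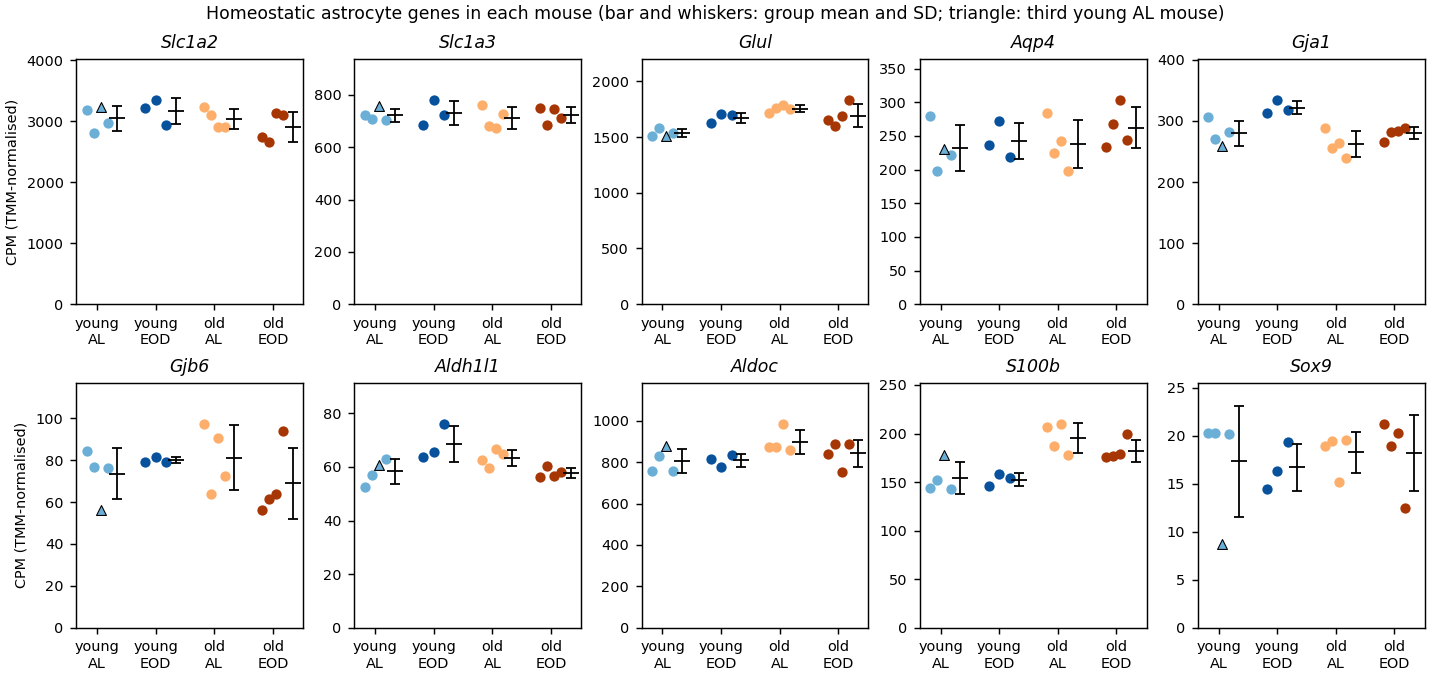
CPM of each gene in each mouse by group (vertical axes start at 0, 1 point per mouse, black bar and whiskers for the group mean and SD, triangle for the third young AL mouse). S100b was higher in old than in young mice within each diet, from 178.2 to 210.3 against 142.7 to 177.4 CPM under AL, whereas the groups of Slc1a2 and Slc1a3 covered each other.

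Correlations among the 10 genes lay on both sides of 0. Over their 45 pairs the median Pearson correlation of log2 CPM over the 15 mice was 0.025, and over 14 mice it was 0.065, with 26 pairs above 0. The pairs with the highest correlations were S100b with Aldoc (r = 0.748 over 15 and 0.748 over 14 mice), Glul with S100b (0.675 and 0.792) and Glul with Aldoc (0.484 and 0.629). Gja1 ran the other way, at -0.466 with S100b and -0.470 with Aldoc over 15 mice, and at -0.463 and -0.448 over 14 mice. Sox9 was at -0.571 with Gjb6 and -0.526 with Glul over 14 mice, against 0.024 and 0.048 over 15 mice. These values hold the differences between the groups as well as those between mice of a group, and all pairs share libraries and depth. Outside the 10 genes, those whose log2 CPM followed the mean of the 10 most closely were Timp3, an inhibitor of matrix proteases (Spearman rho = 0.907, Pearson r = 0.915 over 15 mice), the chloride channel gene Clic4 (0.9 and 0.839) and Sspn, a gene of the dystrophin complex (0.893 and 0.813), out of 8773 genes whose log2 CPM averaged 4 or more. Over 14 mice their rho was 0.886, 0.881 and 0.868. The mean of the 10 was lowest in the third young AL mouse.

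The sequences before the start sites of S100b, Glul and Aldoc are shown because S100b carried the age call and Glul and Aldoc varied most like it over the mice. They are the 250 bases before a RefSeq start (GRCm38.p6), read 5′ to 3′, on the plus strand at chr10:76253586-76253835 for S100b, chr1:153899679-153899928 for Glul and chr11:78322823-78323072 for the first of 2 starts of Aldoc. Capitals mark TTGGCA, a recognition motif of nuclear factor I proteins, which act in astrocyte development.
S100b: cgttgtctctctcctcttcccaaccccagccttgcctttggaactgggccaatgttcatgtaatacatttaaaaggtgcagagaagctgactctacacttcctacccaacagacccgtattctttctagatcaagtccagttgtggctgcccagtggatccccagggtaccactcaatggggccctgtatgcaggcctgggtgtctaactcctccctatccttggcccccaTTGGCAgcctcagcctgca
Glul: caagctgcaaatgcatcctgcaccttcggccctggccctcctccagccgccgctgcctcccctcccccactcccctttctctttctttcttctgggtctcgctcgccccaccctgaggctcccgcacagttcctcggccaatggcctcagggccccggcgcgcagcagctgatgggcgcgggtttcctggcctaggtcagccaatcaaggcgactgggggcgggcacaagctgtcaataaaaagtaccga
Aldoc: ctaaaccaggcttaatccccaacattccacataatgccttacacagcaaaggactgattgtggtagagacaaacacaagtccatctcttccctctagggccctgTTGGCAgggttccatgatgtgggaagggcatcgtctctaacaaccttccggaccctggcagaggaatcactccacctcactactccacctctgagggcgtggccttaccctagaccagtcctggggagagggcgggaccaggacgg
Windows on the chromosome of Aqp4 were left out, both from the search and from the count of all windows. Windows were found for 8 of the 10 genes, 9 windows in all, and 4 motifs of 6 bases were searched on both strands. TTGGCA was in the S100b window, 19 bases before the start, and in the first Aldoc window, 146 bases before it, and 12.3% of all 32851 windows held it. TATAAA, the letters of a TATA box, was in 12.4% of all windows. In the Slc1a3 window it lay 161 bases before the start, on the strand opposite to the gene. Neither of the SOX motifs ACAAAG and AACAAT was in any of the 9 windows, whereas 16.5% and 9.42% of all windows held them. The Glul window held none of the 4 motifs. Its GC content was 64.8%, against 53.6% for S100b, 55.2% for the first Aldoc window and a median of 52.4% over all windows. A match of 6 letters describes the sequence and was not tested as a binding site.

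Of the 10 genes, 1 was called for age in AL mice, against 1.09% of the 15864 genes tested. None was called for age in EOD mice, where 0.29% of all genes were called, and 1 was called for age averaged over diets, where 2.3% were. Over 14 mice the counts of the 10 genes were the same, 1, 0 and 1, beside 1.03%, 0.484% and 2.56% of 15687 genes. The median log2 fold change of the 10 genes with age was 0.11 under AL, -0.0002 under EOD and 0.03 averaged, beside -0.01, -0.0004 and -0.005 for all genes tested. Over 14 mice the medians of the 10 genes in AL mice and averaged were 0.04 and 0.0004. At an unadjusted p under 0.05, 3 of the 10 genes differed in each of these comparisons in edgeR over 15 mice. Of the 15864 genes tested, 1511, 911 and 1856 did.

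The levels of both glutamate transporters overlapped between all groups. Slc1a2 encodes GLT-1, the transporter that clears most synaptic glutamate in the forebrain. It was at 3185, 2803, 3223 and 2963 CPM in young AL, 3218, 3347 and 2935 in young EOD, 3228, 3097, 2907 and 2905 in old AL and 2738, 2656, 3136 and 3098 CPM in old EOD mice. Its log2 fold change with age averaged over diets was -0.06, and the 95% interval of the fold ran from 0.889 to 1.03 (edgeR, FDR = 0.675). Slc1a3, or GLAST, the transporter of cerebellar Bergmann glia and of young astrocytes, had group means of 722 ± 24.3 CPM in young AL (n = 4), 731 ± 47.4 in young EOD (n = 3), 710 ± 42.1 in old AL (n = 4) and 723 ± 31.4 in old EOD mice (n = 4, all SD). Its fold with age averaged over diets was 0.986, with an interval from 0.924 to 1.05. For diet averaged over ages the intervals were 0.928 to 1.08 for Slc1a2 and 0.950 to 1.08 for Slc1a3.

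Glul, the enzyme that joins ammonia to glutamate and completes the loop, was at 1513, 1583, 1505 and 1532 CPM in young AL and at 1715, 1757, 1791 and 1750 CPM in old AL mice. The groups did not overlap. In EOD mice it was at 1624, 1704 and 1698 CPM in the young and at 1655, 1597, 1687 and 1833 CPM in the old, and these groups overlapped. The log2 fold change with age was 0.19 ± 0.055 in AL mice, which missed the threshold (edgeR, FDR = 0.142), and 0.02 ± 0.059 in EOD mice (edgeR, FDR = 0.995). The difference of both was -0.18 on the log2 scale with a 95% interval from -0.35 to -0.01, and it was not called (edgeR, FDR = 0.9998). In AL mice Glul passed the threshold in DESeq2 (FDR = 0.00819) and with scaling by the total count alone in edgeR (FDR = 0.0904), and its log2 fold change ranged from 0.18 to 0.21 over all alternatives. Within the 3 lanes the age difference of Glul in AL mice was 0.15, 0.24 and 0.19, with only 1 or 2 mice per group in each. Averaged over diets the fold of Glul with age was 1.08 (95% interval 1.01 to 1.14, edgeR FDR = 0.281).

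Of 13 further genes of transmitter uptake and the glutamine cycle, none was called in any of the 7 comparisons. The smallest p for age averaged over diets belonged to Slc7a10, a carrier of small neutral amino acids in astrocytes, at -0.21 ± 0.070 (edgeR, FDR = 0.175), and to Slc25a18, a mitochondrial glutamate carrier, at 0.25 ± 0.095 (edgeR, FDR = 0.273). The median of the 13 was -0.01.

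Aqp4, the water channel of astrocyte endfeet, overlapped between all groups. It was at 278.9, 198.0, 230.5 and 221.7 CPM in young AL, 236.6, 271.7 and 218.9 in young EOD, 283.3, 224.8, 243.1 and 198.3 in old AL and 234.2, 267.5, 303.4 and 244.6 CPM in old EOD mice. The fold with age averaged over diets was 1.05 with a 95% interval from 0.935 to 1.18, and the fold with diet averaged over ages was 1.08 with an interval from 0.955 to 1.21. Of 14 further genes for potassium, water and the endfoot, none was called in any comparison. Slc14a1, a urea transporter, stood at 0.38 ± 0.12 (edgeR, FDR = 0.132) and Kcnj10, the potassium channel Kir4.1, at -0.11 ± 0.049 (edgeR, FDR = 0.393) for age averaged over diets, and the median of the 14 was 0.01.

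Gja1 encodes connexin 43, the main gap junction protein of astrocytes. It was at 307.1, 269.7, 259.6 and 281.6 CPM in young AL, 313.8, 334.4 and 317.4 in young EOD, 289.1, 256.3, 264.4 and 239.3 in old AL and 265.8, 281.9, 283.9 and 289.0 CPM in old EOD mice. The young EOD mice were the 3 highest of all 15 and overlapped neither with young AL nor with old EOD mice. Averaged over diets the log2 fold change with age was -0.15 ± 0.050 (edgeR, FDR = 0.2), and averaged over ages the log2 fold change with EOD was 0.15 ± 0.050 (edgeR, FDR = 0.983). In young mice EOD against AL gave 0.20 ± 0.073 (edgeR, FDR = 0.996) and in old mice 0.10 ± 0.068 (edgeR, FDR = 0.9999). Over 14 mice the difference in young mice was 0.17 (edgeR, FDR = 0.9998). With age Gja1 differed by -0.20 ± 0.074 in EOD mice (edgeR, FDR = 0.706) and by -0.09 ± 0.068 in AL mice (edgeR, FDR = 0.715). None of these passed the threshold. Within the 2 lanes that held both young and old EOD mice the age difference was -0.24 and -0.21 on the log2 scale. Under AL it was 0.007, 0.004 and -0.23 within the 3 lanes. All of these lane values rest on only 1 or 2 mice per group.

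Gjb6, connexin 30, the other main gap junction protein of astrocytes, overlapped between all groups. It was at 84.6, 76.9, 56.05 and 76.1 CPM in young AL, 79.3, 81.7 and 78.98 in young EOD, 97.5, 64.0, 90.8 and 72.3 in old AL and 56.3, 61.6, 63.9 and 94.1 CPM in old EOD mice. The young EOD mice lay close together, and the mice of both old groups were spread widely. The log2 fold change of EOD against AL in old mice was -0.23 ± 0.15 (edgeR, FDR = 0.9999). Averaged over diets its fold with age was 0.976, and the 95% interval, from 0.832 to 1.145, was wider than those of the transporters. Over 14 mice the fold was 0.942, with an interval from 0.811 to 1.09. Of 9 genes for other connexins and their partners, none was called. Gjb1, an oligodendrocyte connexin, stood at 0.35 ± 0.10 (edgeR, FDR = 0.121) and Gjd2, a neuronal connexin, at -0.30 ± 0.14 (edgeR, FDR = 0.428) for age averaged over diets, and the median of the 9 was -0.10.

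Aldh1l1, an enzyme of folate metabolism used as a general astrocyte marker, was at 52.7, 57.0, 60.6 and 63.1 CPM in young AL, 63.9, 65.5 and 76.2 in young EOD, 62.6, 59.6, 66.8 and 64.8 in old AL and 56.4, 60.4, 56.7 and 58.0 CPM in old EOD mice. The young EOD mice lay above every old EOD mouse and, with 63.9 against 63.1 CPM at the closest, above every young AL mouse. The age effect was 0.12 ± 0.081 on the log2 scale in AL mice (edgeR, FDR = 0.685) and -0.24 ± 0.088 in EOD mice (edgeR, FDR = 0.67). The interaction of age and diet was -0.36 ± 0.12 with a 95% interval from -0.61 to -0.11 (edgeR, FDR = 0.9998) and was not called. Diet in young mice gave 0.23 ± 0.087 (edgeR, FDR = 0.996) and in old mice -0.13 ± 0.081 (edgeR, FDR = 0.9999). Averaged over diets the age effect was -0.06 (edgeR, FDR = 0.741).

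Aldoc, the brain form of the glycolytic enzyme aldolase, was at 759.3, 830.4, 876.5 and 755.0 CPM in young AL, 813.1, 776.6 and 837.0 in young EOD, 872.5, 871.2, 986.8 and 858.4 in old AL and 841.8, 888.1, 752.0 and 888.3 CPM in old EOD mice. The old AL mice would lie above all young AL mice but for the third one, at 876.5 CPM. In AL mice the log2 fold change with age was 0.16 ± 0.070 over 15 mice (edgeR, FDR = 0.485) and 0.20 ± 0.072 over the 14 mice without it (edgeR, FDR = 0.390), where the groups did not overlap. Averaged over diets the log2 fold change was 0.11, with a 95% interval from -1.5e-05 to 0.21 (edgeR, FDR = 0.427), and with 14 mice it was 0.13 (edgeR, FDR = 0.261). Of 16 further genes of glycogen, glycolysis and amino acid metabolism, none was called, with a median log2 fold change of 0.05 for age averaged over diets. Slc2a1, the glucose transporter GLUT1, stood at 0.20 ± 0.078 (edgeR, FDR = 0.277) and Cbs, which makes cystathionine, at 0.15 ± 0.090 (edgeR, FDR = 0.559).

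Sox9, a transcription factor that marks astrocyte nuclei in the adult brain, was at 20.25, 20.25, 8.69 and 20.16 CPM in young AL, 14.5, 16.3 and 19.3 in young EOD, 18.9, 19.4, 15.1 and 19.6 in old AL and 21.3, 18.9, 20.3 and 12.5 CPM in old EOD mice. The third young AL mouse held the lowest value of all. With it the log2 fold change with age averaged over diets was 0.11 ± 0.16, and without it 0.004 ± 0.11 (edgeR, FDR = 0.840 and 0.994). With diet averaged over ages it was -0.03 ± 0.16 over 15 and -0.15 ± 0.11 over 14 mice (edgeR, FDR = 0.996 and 0.888). Among AL mice the age difference was 0.10 ± 0.21 over 15 and -0.13 ± 0.15 over 14 mice (edgeR, FDR = 0.922 and 0.958). Among young mice the log2 fold change with EOD was -0.05 ± 0.23 over 15 and -0.28 ± 0.16 over 14 mice (edgeR, FDR = 0.9985 and 0.9998). Without the third young AL mouse the young AL mice lay above all old AL and all young EOD mice. Of 14 further astrocyte transcription factors and receptors, none was called, with a median of 0.03 for age averaged over diets. Sox10, a factor of oligodendrocytes, stood at 0.33 ± 0.12 (edgeR, FDR = 0.217) and Lhx2 at 0.18 ± 0.095 (edgeR, FDR = 0.477).

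**Figure D3:**
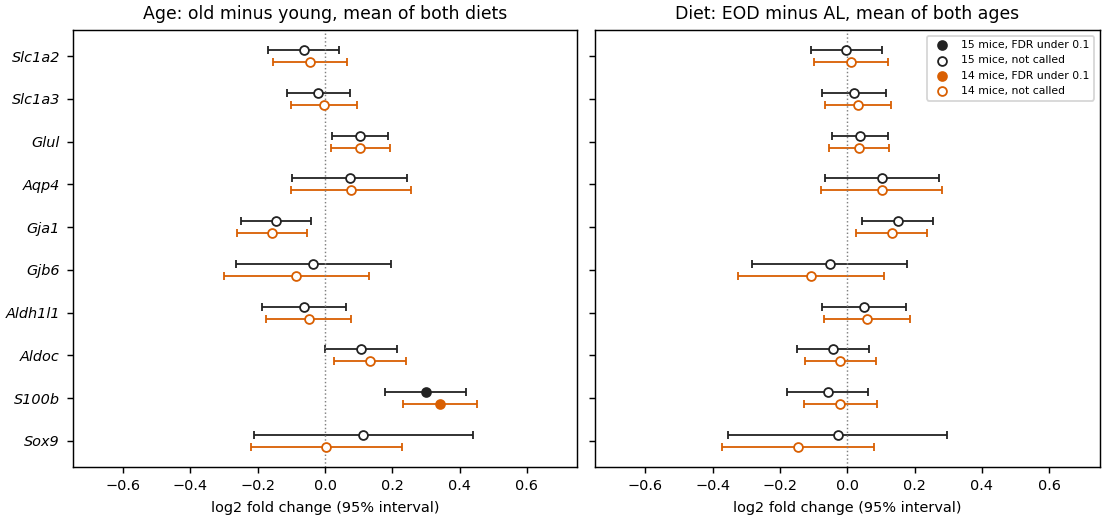
Log2 fold change (horizontal axis) with its 95% interval for each gene, for age averaged over diets (left) and diet averaged over ages (right), over 15 mice (black) and over the 14 mice without the third young AL mouse (orange). Filled points passed FDR 0.1 in edgeR, and S100b with age, at 0.30 and 0.34, was the only filled one.

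Every other day feeding gave no call for any of the 10 genes, nor for any of the 15864 genes tested. The percentage of all genes called was 0 with EOD against AL among the young, 0 among the old, 0 over both ages and 0 for the interaction of age and diet. At an unadjusted p under 0.05 in edgeR, 3, 0, 1 and 2 of the 10 genes differed in these comparisons, and 657, 409, 715 and 362 of the 15864 genes tested did. DESeq2 called none of the 10 genes in them either, and 1, 0, 0 and 0 of all genes. The median log2 fold change of the 10 genes with EOD was 0.06 among the young, -0.06 among the old and 0.01 over both ages, beside -0.003, 0.003 and 0.0004 for all genes. The median of the interaction was -0.10, beside 0.006 for all genes. Over the 10 genes, the 95% intervals for diet averaged over ages ran from -0.35 (Sox9) to 0.30 (Sox9) on the log2 scale.

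Groups that did not overlap were counted as well. With age in AL mice 2 of the 10 genes were apart, Glul and S100b, both higher in the old, beside 4.58% of all genes. Without the third young AL mouse 4 were apart, Aldoc joining as higher and Sox9 as lower in the old, beside 6.88%. With age in EOD mice 3 were apart, S100b higher and Gja1 and Aldh1l1 lower in the old, beside 9.04%. With diet in young mice 3 were apart, Gja1, Aldh1l1 and Glul, all higher with EOD, beside 4.44%. Without the third young AL mouse 4 were apart, with Sox9 lower in the EOD mice, beside 8.71%. With diet in old mice none was apart, beside 2.6%. Each of the 4 groups enters 2 of these comparisons, which are therefore not independent.

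Reactive astrocyte genes rose in the same ageing mice. These genes were listed with earlier results of these data known, and the study names C4b among its top genes for age. Of 16 such genes, 15 passed the filter and 11 were called higher for age averaged over diets, beside 2.3% of all genes tested. The median log2 fold change was 0.70, and none was called lower. In AL mice 7 were called, beside 1.09% of all genes, and in EOD mice 5, beside 0.29%. C4b, a complement component, rose by 2.46 ± 0.087, Serpina3n, a protease inhibitor, by 1.29 ± 0.086, Gfap by 1.16 ± 0.057, the class I histocompatibility gene H2-D1 by 0.89 ± 0.11 and the filament gene Vim by 0.70 ± 0.073 (edgeR, largest FDR of these = 5.53e-05). These genes are also made by other cells, such as microglia for H2-D1 and vessel cells for Vim. The summed level of the 16 genes was 360 to 399 CPM in young AL, 327 to 376 in young EOD, 781 to 842 in old AL and 629 to 689 CPM in old EOD mice. The sum of the 10 homeostatic genes was 6699 to 7154, 7060 to 7536, 7011 to 7536 and 6691 to 7428 CPM in the same groups, and all groups overlapped. Microglia markers moved with age too, with 4 of 7 called higher averaged over diets, beside 2.3% of all genes called in either direction. Their sums were 329 to 362 CPM in young AL, 321 to 345 in young EOD, 415 to 475 in old AL and 400 to 456 CPM in old EOD mice. What part microglial RNA had in the reactive genes was not tested. Of 10 neuron markers none was called, at a median of -0.07.

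**Figure D4:**
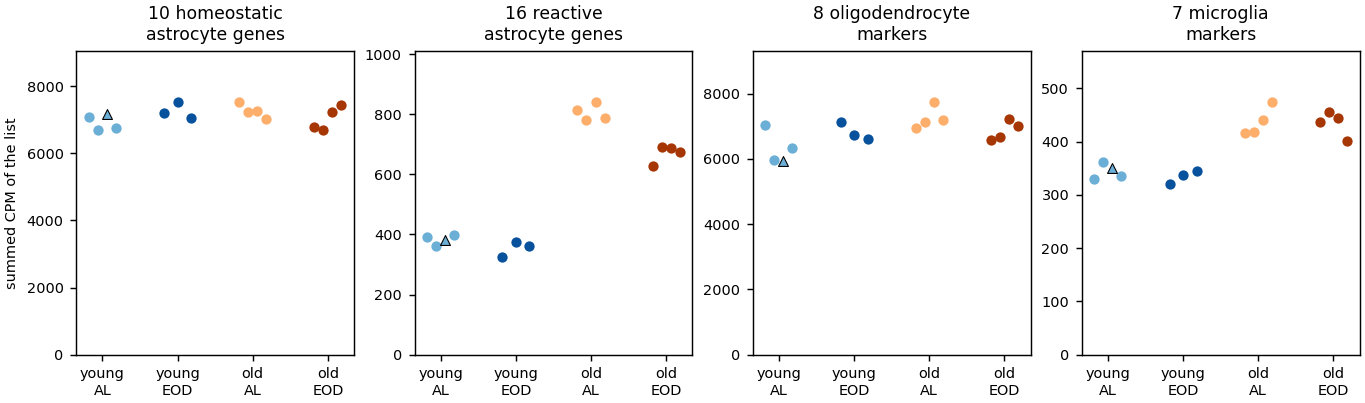
Summed CPM of 4 gene lists in each mouse (vertical axes start at 0, 1 point per mouse, triangle for the third young AL mouse). The sums of the 10 homeostatic genes overlapped between all groups, from 6691 to 7536 CPM, and the sums of the reactive and microglia lists were higher in every old than in every young mouse.

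A list of 20 other astrocyte markers held 1 called gene, for age averaged over diets, where 2.3% of all genes were called. Apoe, the lipid carrier of astrocytes and microglia, rose with age averaged over diets by 0.31 ± 0.080 (edgeR, FDR = 0.0598). Its mean was 663 ± 97.2 CPM in young AL (n = 4), 637 ± 47.3 in young EOD (n = 3), 855 ± 111 in old AL (n = 4) and 756 ± 112 CPM in old EOD mice (n = 4, all SD). Without the third young AL mouse the young AL mean of Apoe was 684 ± 108 CPM (SD, n = 3), nearer to the old means. The median of the 20 genes was -0.02. Over the 7 comparisons, none of the 5 lists for uptake, endfoot, junctions, metabolism and transcription held a call.

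**Figure D5:**
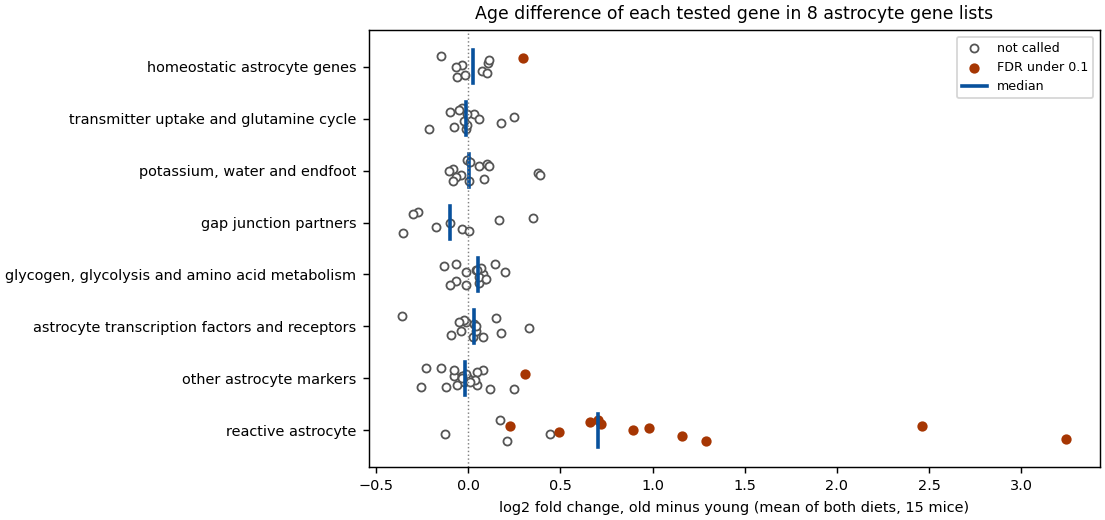
Log2 fold change with age averaged over diets (horizontal axis) of each tested gene in 8 astrocyte gene lists, with filled points past FDR 0.1 in edgeR and a vertical line at each median. The homeostatic genes lay between -0.15 (Gja1) and 0.30 (S100b), and the median of the reactive list was 0.70.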

How the data were processed

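The authors aligned the reads to GRCm38 with STAR and counted them with featureCounts 1.5.0-p1 on Ensembl release 79 genes (minimum mapping quality 5, reverse-stranded). The deposited values are raw counts per gene, 1 library per mouse, grouped here by the labels. Tests used edgeR 4.0.16 under R 4.3.3 (filterByExpr, TMM factors, quasi-likelihood test, Benjamini-Hochberg adjustment over all genes tested) in 1 fit of the 4 group means, without covariates. Log2 CPM used a prior count of 2. The common biological coefficient of variation was 0.119, and at 5198748 to 13610729 counts per mouse Sox9 is the member with the fewest counts. That replicates came from separate mice is given by the study's methods. No replicate pair held identical counts.

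The members and all gene lists were chosen with earlier results of these data known. Named beside the 10 members are, of each other astrocyte list, up to 5 called genes by smallest p or, with none, the 2 with the smallest p for age averaged over diets, and the 3 genes most like the mean of the members. Mbp, Mog, Opalin and Mobp were added after their values were seen. Same-numbered mice of different groups did not deviate together (21 pairs, mean correlation -0.027, range -0.113 to 0.113), so replicate numbers were not taken as pairs. Alternatives were other filters, RLE or total-count scaling, DESeq2 1.42.0, FDR 0.05, replicate number or lane in the fit, a fit of just the groups compared, and each mouse left out once. DESeq2 and lane without the third young AL mouse, and 13 mice without it and the fourth old AL mouse, were added after seeing the data. The edgeR and DESeq2 steps were tested on simulated data with age folds larger than any of the 10 genes showed. How often folds as small as theirs would be called was not tested. Promoter sequences come from RefSeq (GRCm38.p6).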

Additional observations from a re-analysis of the deposited data

Results flagged for a closer look

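Within the groups of 4 mice, 4 of 30 sets of values held 1 mouse far from the other 3 by Dixon's criterion, which chance alone gives in about 5% of sets. Sox9 was at 8.69 CPM in the third young AL mouse, the mouse that stood apart over all genes, against 20.16 to 20.25 CPM in the others of its group. Sox9 was also low in the third old AL mouse, at 15.13 CPM. Aldoc was high in the same old AL mouse, at 986.8 CPM. S100b was highest of the old EOD mice in the fourth, at 199.1 CPM. Without that mouse S100b was still called for age averaged over diets (edgeR, FDR under 0.1).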

How the results depend on the processing

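The age rise of S100b averaged over diets was called in 25 of 25 alternatives, at 0.28 to 0.36 on the log2 scale. In AL mice alone it was called in 21 of 26. The count of the 10 genes called for age in AL mice, 1, was 2 with total-count scaling, 2 with DESeq2 and 2 with DESeq2 without the third young AL mouse (Glul and S100b), and 0 with only the 2 groups compared. It ranged from 0 to 1 with single mice left out, with 0 without the first or the second young AL or the first or the third old AL mouse. For age averaged over diets it was 2 with DESeq2 without the third young AL mouse, where Gja1 joined (FDR = 0.0675). The other counts of the 10 genes were within 1.5 times the main count. With the replicate block in the fit the count stayed 1, 0 and 1 for age under AL, under EOD and averaged, and S100b averaged was at 0.31 (edgeR, FDR = 0.0145). The block changed no other call of the 10 genes.

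The log2 fold changes followed under each alternative were the averaged age and diet effects of all 10 genes and a chosen part of the others. That part held the age and diet effects within groups for S100b, Glul, Gja1, Aldh1l1 and Gjb6. It also held the interactions of Aldh1l1 and Glul and single effects of Aldoc and Sox9. Among those followed, the ones that changed sign were at most 0.114 in size as reported and at most 0.164 in size after the change. None of them was called (edgeR or DESeq2, smallest FDR = 0.918), and their causes were not tested. Effects not followed changed sign too, such as Slc1a2 with age in AL mice, at -0.004 over 15 and 0.03 over 14 mice. Sox9 with age in AL mice, at 0.10, was -0.137 with DESeq2, -0.138 with lane and -0.129 in the plain fit, each without the third young AL mouse, and -0.164 over 13 mice. With single mice left out it ranged from -0.129 to 0.191. With diet in young mice Sox9 was 0.0658 with lane in the fit and ranged from -0.279 to 0.0561. Glul with age in EOD mice was -0.00584 with lane in the fit and ranged from -0.0250 to 0.0419 with single mice left out. Sox9 with age averaged over diets was -0.00147 with DESeq2 without the third young AL mouse and -0.0136 over 13 mice, and with diet averaged over ages it was 0.00803 with lane in the fit and ranged from -0.146 to 0.0431 with single mice left out. S100b with diet in young mice was 0.0534 with DESeq2 without the third young AL mouse, 0.0594 over 13 mice, 0.0388 with lane without that mouse, and ranged from -0.0525 to 0.0594. Slc1a2 with diet averaged over ages was 0.00925, 0.00165 and 0.0251 in the same 3 settings and ranged from -0.0223 to 0.0244. Slc1a3 ranged from -0.0418 to 0.00452 with age and from -0.00366 to 0.0427 with diet, and Gjb6 from -0.128 to 0.0137 with age, with single mice left out.

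Over all genes the counts depended more on the settings. With every gene of at least 1 count, 444 genes were called for age under AL, 100 under EOD and 653 for both together, and 26 for diet among the young, 27 among the old, 65 over both ages and 26 for the interaction. DESeq2 called 70 for age in EOD mice. Age averaged over diets gave 229 at FDR 0.05 and 237 with lane in the fit, and age in AL mice gave 86 with only the groups compared. For age in EOD mice the count was 19, 21 and 20 without the first, the second and the third young EOD mouse, 24 without the second old EOD mouse, 76 without the third young AL mouse and 79 over 13 mice. Age in AL mice gave 102 without the third old AL mouse, and age averaged over diets gave 222 without the first and 216 without the second young EOD mouse. DESeq2 without the third young AL mouse called 97 for age in EOD mice and 2 for diet in old mice, and lane in the fit gave 2 for diet in old mice, or 3 without that mouse. Depth limits Sox9 most, at 80 to 254 counts per mouse.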
